A study of Mus musculus with 12 samples.

Results

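The chemokine system of the mouse retina was examined through 10 genes, which comprised the ligands Cx3cl1, Cxcl12, Cxcl14, Cxcl16, Ccl25, Ccl27a and Ccl2, the receptors Cx3cr1 and Cxcr4, and the scavenging receptor Ackr3. They were taken by gene name from a table of scaled read counts with 56748 entries and from a table of TPM, a transcript share corrected for transcript length, and all 10 were present in both. Chemokines are small secreted or membrane-tethered proteins that guide migrating cells through G protein-coupled receptors, and in the retina they are known chiefly as signals between neurons, glia, vessels and microglia. Cx3cl1 (fractalkine) is made by neurons and is read by Cx3cr1 on microglia. Cxcl12 is read by Cxcr4 and removed by Ackr3, which does not couple to G proteins in the usual way.

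The 12 libraries came from 2-month-old mice in 4 groups of 3, named control rod TRAP, Abca4Ko rod TRAP, control retina and Abca4Ko retina. All animals carried the RiboTag allele and the i75-Rod-Cre transgene, whose rhodopsin promoter drives Cre in rods, and the Abca4Ko animals were in addition Abca4-/-. Abca4 encodes a transporter of photoreceptor discs that clears retinal derivatives, and its loss is a model of Stargardt disease. Retina is the RNA of the whole lysate, and rod TRAP is the RNA recovered with tagged polyribosomes after cycloheximide perfusion, so a rod TRAP value is a share of ribosome-bound message and not of total RNA. The labels do not say that the 3 libraries of a group came from separate animals, so p-values measure the spread between these libraries, which may be technical.

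Abca4 and the cell type markers served as a check of the labels. Abca4 stood at 195, 365 and 13156 scaled counts in the 3 Abca4Ko rod TRAP libraries against 53193 to 61017 in control rod TRAP, and at 153, 366 and 8124 in Abca4Ko retina against 37619 to 38929 in control retina. The libraries labelled Abca4Ko replicate 3 thus kept 23.5% and 21.3% of the control mean of their fraction, and every genotype result below was also computed without them. The 20 rod markers summed to 244% of the retina level in control rod TRAP and to 256% in Abca4Ko rod TRAP. Cone markers were the least depleted, since the median of 12 stood at 32.9% of its retina level in control rod TRAP and at 60.3% in Abca4Ko rod TRAP. Markers of the other cells were lower at the median but seldom at 0, and single genes ranged widely, up to 273% for a bipolar marker. The median marker of Muller glia in control rod TRAP stood at 3.45% of its retina level, of bipolar cells at 3.27%, of amacrine cells at 2.67%, of ganglion cells at 3.37%, of vascular cells at 1.87% and of microglia at 1.27%. Of the 15 microglial markers, 4 were at 0 in all 3 control rod TRAP libraries (Tmem119, Aif1, Fcrls and Itgam), as were 2 of the 15 vascular markers (Egfl7 and Cspg4). The scaled totals were 17096515 to 17097707 per rod TRAP library and 17860761 to 17862326 per retina library, because the authors had brought each fraction to one total. Where the scale factor could be read back from the spacing of the values (7 of 12 libraries), depth was 14.8 to 23.2 M reads. No factor was recovered for 4 rod TRAP libraries and 1 retina library. In the libraries with a factor, a limit of 3 reads, which a count of 0 cannot exclude, corresponded to at most 3.17 scaled counts in rod TRAP and 3.63 in retina. These values were used as the limit for every library of a fraction, although it may differ in those without a factor. The limit covers counting error only.

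Cx3cl1, the neuronal ligand, was among the 3 most abundant of the 10 messages in retina and nearly absent from rod polyribosomes. It had 1897, 2523 and 2731 scaled counts in control retina and 1061, 2564 and 2332 in Abca4Ko retina. In rod TRAP the values were 15, 25 and 18 in control and 4, 10 and 13 in Abca4Ko, all above the limit. Every rod TRAP library lay far below every retina library, and among the retina libraries Abca4Ko replicate 1 stood apart at the low end. The rod TRAP level was 1.25% of the retina level in control (95% exact counting interval 0.948 to 1.62) and 0.692% in Abca4Ko (0.455 to 1.01), below the 2.67% of the median amacrine marker. The fitted log2 difference, rod TRAP over retina, was -5.81 ± 0.19 (SE, n = 3 against 3) in control, with a limma adjusted p of 1.93e-10. Its detection limit was 0.112 TPM in rod TRAP, where it stood at 0.4 to 0.9 TPM.

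Cx3cr1, the fractalkine receptor and a defining gene of microglia, was low but well measured in retina. It had 65, 100 and 82 scaled counts in control retina and 87, 90 and 93 in Abca4Ko retina. In rod TRAP it had 0, 0 and 2 in control and 1, 1 and 5 in Abca4Ko, so that only 1 of 6 libraries, the library labelled Abca4Ko replicate 3, was above the limit, which corresponds to 0.106 TPM. The 2 genotypes overlapped in both fractions. Rod TRAP held 1.25% of the retina level in control (interval 0.150 to 4.56) beside 1.27% for the median microglial marker, and 3.96% in Abca4Ko (1.58 to 8.26) beside 2.20%. The part of microglial RNA carried over in the precipitate was not tested.

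The 3 genes of the Cxcl12 axis were all retina messages. Cxcl12 had 316, 388 and 483 scaled counts in control retina and 220, 476 and 432 in Abca4Ko retina. In rod TRAP it had 0, 1 and 4 in control and 4, 3 and 2 in Abca4Ko, and 2 of 6 libraries were above the limit of 3.17 scaled counts, while 3 of 6 were listed above the corresponding 0.156 TPM. Rod TRAP therefore gave values at the edge of detection in both genotypes, 0.649% of the retina level in control (interval 0.210 to 1.52) and 1.22% in Abca4Ko (0.555 to 2.32). Cxcr4, its receptor, had 19, 33 and 31 scaled counts in control retina and 12, 37 and 34 in Abca4Ko retina, and 0 in all 6 rod TRAP libraries. With the limit of 3.17 scaled counts per library in place of those zeros, Cxcr4 was at least 5.64-fold lower in control rod TRAP than in retina. In Abca4Ko it was at least 5.56-fold lower, and its rod TRAP level was under 0.249 TPM. These bounds hold only as far as that limit fits the rod TRAP libraries without a recovered scale factor. The fitted difference of Cxcr4 depends on the pseudocount and is no bound. Ackr3 had 113, 106 and 196 scaled counts in control retina and 30, 126 and 113 in Abca4Ko retina, where replicate 1 was again the lowest library. In rod TRAP Ackr3 had 0, 0 and 3 in control and 0, 1 and 1 in Abca4Ko, with no library above the limit of 0.124 TPM. Its rod TRAP share was 1.11% of retina in control (interval 0.229 to 3.28) and 1.13% in Abca4Ko (0.137 to 4.14).

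**Figure D1:**
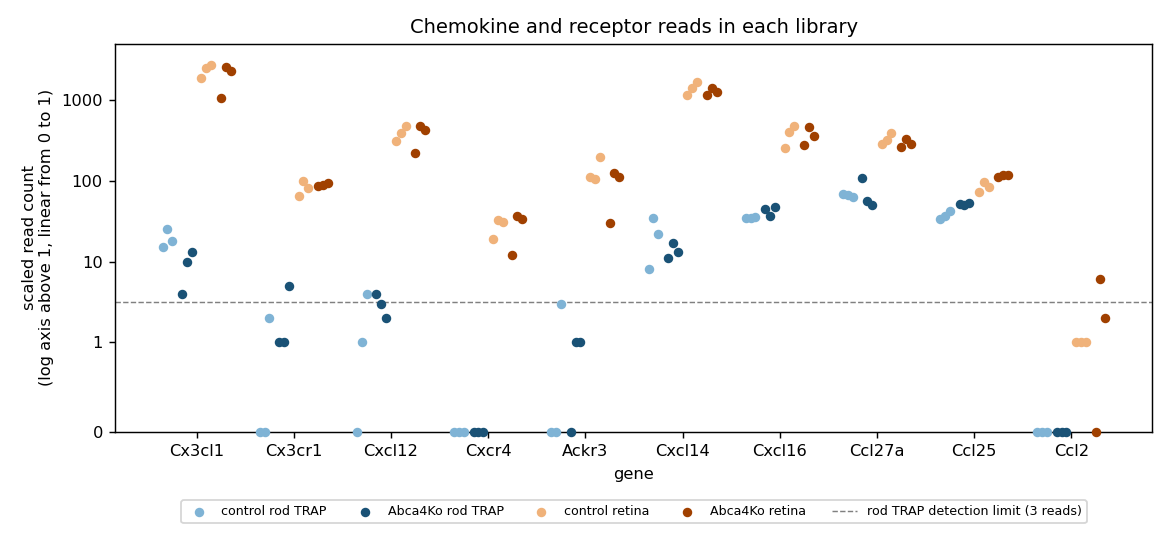
Scaled read count (vertical axis, log above 1 and linear from 0 to 1) of each gene in each of the 12 libraries, with 1 point per library, colours for the 4 groups and a dashed line at the rod TRAP limit of 3 reads (3.17 scaled counts). Retina points lie above rod TRAP points for all genes but Ccl2, and the gap is narrowest for Ccl25 and Ccl27a.

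Cxcl14 and Cxcl16 were also mainly retina messages. Cxcl14, a ligand with a debated receptor, had 1156, 1442 and 1671 scaled counts in control retina and 1179, 1429 and 1283 in Abca4Ko retina. In rod TRAP it had 8, 35 and 22 in control and 11, 17 and 13 in Abca4Ko, all above its limit of 0.210 TPM. The control libraries spanned the Abca4Ko ones in rod TRAP, and both groups sat far below retina, at 2.35% of its level in control (interval 1.81 to 3.00) and 1.61% in Abca4Ko (1.15 to 2.19). Cxcl16, a membrane-tethered ligand and scavenger receptor, had 253, 399 and 482 scaled counts in control retina and 280, 464 and 363 in Abca4Ko retina. Its rod TRAP values were 35, 35 and 36 in control and 45, 37 and 48 in Abca4Ko. The genotypes did not overlap, as for 17.8% of all genes tested, but the lowest Abca4Ko value, 37, lay next to the highest control value, 36. The rod TRAP values came to 14.4% of retina in control (interval 11.7 to 17.6) and 17.9% in Abca4Ko (14.8 to 21.5). The TPM table did not bear out that level, since Cxcl16 had only 0.3 to 0.5 TPM in rod TRAP against 11.7 to 24.0 in retina. Its limit in rod TRAP was 0.199 TPM, set at the scale of its retina values, which its rod TRAP values did not share. Between the tables its rod TRAP to retina difference moved by -2.75 on the log2 scale, where 95% of 5859 genes lay between -0.23 and 0.19. Those genes were chosen for high values in every library of both tables, so the range is no measure of the spread of low genes. Ackr3 (-0.97), Cx3cl1 (0.34), Ccl27a (0.33) and Ccl25 (0.20) were also outside that range, by less. Their rod TRAP counts were far lower than those of the 5859 genes, and the part of counting error and rounding was not tested. Cxcl16 overlaps Zmynd15 on the opposite strand in the GENCODE M21 annotation of GRCm38, and whether reads of that neighbour enter the counts was not tested.

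Among the ligands listed at the start, Ccl25 and Ccl27a were the 2 with the largest share on rod polyribosomes. Ccl25, a ligand of Ccr9 known from thymus and gut, had 34, 37 and 42 scaled counts in control rod TRAP and 52, 50 and 53 in Abca4Ko rod TRAP. In retina it had 73, 96 and 83 in control and 111, 119 and 118 in Abca4Ko. The Abca4Ko libraries lay above the control libraries in both fractions, with no overlap in scaled counts or in TPM. The genotypes also did not overlap for 17.8% of all genes tested in rod TRAP and 19.7% in retina. Neither genotype difference of Ccl25 was called, as given below. Rod TRAP held 69.1% of the retina level in control (interval 54.9 to 86.6) and 68.0% in Abca4Ko (55.9 to 82.4), or 46.8% and 46.5% on the authors' totals alone. In TPM it was 4.7 to 5.4 in control rod TRAP and 5.7 to 9.4 in Abca4Ko rod TRAP, against a limit of 0.383 TPM. Ccl25 overlaps the start of Elavl1 on the opposite strand in the same annotation, and without strand in the counting the reads of both cannot be told apart.

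Ccl27a, a skin-homing ligand of Ccr10, had 69, 67 and 63 scaled counts in control rod TRAP and 108, 56 and 51 in Abca4Ko rod TRAP. In retina it had 286, 320 and 393 in control and 261, 335 and 291 in Abca4Ko. The genotypes overlapped in both fractions, with Abca4Ko rod TRAP replicate 1 the highest of the rod libraries. Rod TRAP held 30.7% of retina in control (interval 26.2 to 35.8) and 37.0% in Abca4Ko (31.7 to 43.0), and the limit was 1.00 TPM. Ccl27a has near-identical copies and touches Il11ra1 on the opposite strand, so its level is uncertain. Ccl2, the monocyte attractant often read as a sign of retinal inflammation, was at 0 in all 6 rod TRAP libraries, at 1, 1 and 1 scaled counts in control retina and at 0, 6 and 2 in Abca4Ko retina. Only 1 of 6 retina libraries, Abca4Ko replicate 2, was above the limit of 3 reads (0.495 TPM in retina, 0.558 TPM in rod TRAP), so Ccl2 was not detectable in rods, no fold is given, and it was not tested.

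On the per-length TPM scale the members fell into tiers. In control retina the order of mean TPM was Ccl27a at 83.9 ± 9.0 (SD, n = 3), Cxcl14 at 73.4 ± 13.4, Cx3cl1 at 65.0 ± 13.4, Cxcl16 at 19.0 ± 5.9, Cxcl12 at 14.97 ± 2.41, Ccl25 at 8.30 ± 0.36, Ackr3 at 4.00 ± 1.31, Cx3cr1 at 2.17 ± 0.50, Cxcr4 at 1.67 ± 0.49 and Ccl2 at 0.133 ± 0.058. The first 3 overlapped as neighbours, as did Cxcl16 with Cxcl12 and Cx3cr1 with Cxcr4, and the other neighbours did not overlap. In control rod TRAP the order was different. Ccl27a led at 27.2 ± 3.8 TPM, followed by Ccl25 at 5.13 ± 0.38, Cxcl14 at 1.40 ± 0.95 and Cx3cl1 at 0.767 ± 0.153. Only Cxcl14 and Cx3cl1 overlapped among these 4. Ccl27a and Ccl25 were also first and second in Abca4Ko rod TRAP, at 27.6 ± 7.8 and 7.30 ± 1.90 TPM, without overlap. Their places are uncertain, given the near-identical copies of Ccl27a and the opposite-strand neighbours of both genes described above.

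Upstream sequences of Cx3cl1 and Cxcl12, the 2 ligands with the lowest rod TRAP shares among ligands above 0, and of Ccl25, the member with the highest, are shown so that their promoters can be compared. They are the 250 bases before a RefSeq start in GRCm38.p6, 5′ to 3′ along the gene, in lower case with capitals for any of 3 motifs, spelled out after the sequences, on either strand. Of the 2 starts listed for Ccl25, the downstream one is printed. The other stretch (chr8:4324960-4325209) holds none of the 3 motifs and is 74.8% G or C, against 51.6% for the printed one. Which start is used in these retinas was not tested.
Cx3cl1 (chr8:94771930-94772179, plus strand): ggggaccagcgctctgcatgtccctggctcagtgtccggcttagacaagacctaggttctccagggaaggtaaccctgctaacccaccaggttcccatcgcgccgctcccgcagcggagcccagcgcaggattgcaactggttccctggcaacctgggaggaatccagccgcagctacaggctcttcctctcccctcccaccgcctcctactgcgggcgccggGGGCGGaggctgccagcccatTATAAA
Cxcl12 (chr6:117168285-117168534, plus strand): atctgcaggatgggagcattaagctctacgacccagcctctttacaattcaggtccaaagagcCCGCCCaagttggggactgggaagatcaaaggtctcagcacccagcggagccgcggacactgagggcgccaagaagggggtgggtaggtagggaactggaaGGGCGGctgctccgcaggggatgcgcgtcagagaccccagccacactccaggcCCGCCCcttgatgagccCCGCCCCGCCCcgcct
Ccl25 (chr8:4349338-4349587, plus strand): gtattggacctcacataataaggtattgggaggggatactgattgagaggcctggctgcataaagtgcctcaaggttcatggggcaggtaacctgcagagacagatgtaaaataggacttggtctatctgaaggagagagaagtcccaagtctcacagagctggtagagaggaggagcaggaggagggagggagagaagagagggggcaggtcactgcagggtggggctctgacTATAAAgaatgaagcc
Of the 10 genes, 8 matched in the promoter table, with 11 starts. TATAAA, the TATA box core, was present before 4 of the 11 starts (Cx3cl1, Ccl25, Cxcr4 and Ackr3) and before 12.4% of 32851 promoters. GGGCGG, the GC box, was present before 5 (Cx3cl1, Cxcl12, Cxcr4, Ackr3 and Ccl27a) and before 32.7% of all. TAATCC, the core bound by the photoreceptor factors Crx and Otx2, was present before 0 of the 11 and before 6.25% of all. An absent match says only that these letters are not in this window.

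The first comparison was of rod polyribosomes with retina, which asks where these messages sit. In each genotype 9 of the 10 genes passed the filter, and limma called all of them but Ccl25 lower in rod TRAP. Cx3cr1, Cxcl12, Cxcr4 and Ackr3 had 10 scaled counts in 0 rod TRAP libraries, passed the filter only through retina, and so had to differ. Cxcl14 in control and Cx3cl1 in Abca4Ko reached 10 scaled counts in only 2 rod TRAP libraries. They too needed retina to pass, so those calls carry no weight either. For that reason the calls are read gene by gene and not as a count. Of all genes tested, 38.8% were called lower and 36.6% higher in control, and 33.7% and 30.4% in Abca4Ko. The 2 comparisons use separate libraries.

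Cx3cl1 and Cxcl14 differed by -5.81 and -5.05 on the log2 scale in control and by -6.30 and -5.38 in Abca4Ko. The called differences of Cxcl12 (-4.88 and -4.59), Ackr3 (-3.52 and -2.90), Cx3cr1 (-2.92 and -2.84) and Cxcr4 (-1.78 and -1.75) rest on rod TRAP values at or near 0 and on the pseudocount. With a pseudocount of 2 and of 0.1, Cxcl12 in control gave -3.20 and -6.53, and Cx3cr1 gave -1.46 and -4.79, so these genes are not ranked. Cxcl16 was lower, at -2.45 ± 0.22 (SE) in control and -2.29 ± 0.22 in Abca4Ko, and Ccl27a at -1.51 ± 0.17 and -1.42 ± 0.27. With log2(TPM + 1) Cxcl16 gave -3.86 and -3.67. Ccl25 was the exception, at -0.38 ± 0.19 in control (limma adjusted p = 0.0841) and -0.51 ± 0.21 in Abca4Ko (adjusted p = 0.0535). With the replicate number as a block, Ccl25 passed the threshold in Abca4Ko (adjusted p = 0.0434) and not in control. On the authors' totals alone, without rescaling, Ccl25 passed in both, at -0.94 and -0.99, while the median of all genes moved to -0.62 and -0.49. That scaling also changed the split of all calls in control from 5968 higher and 6317 lower to 3415 and 9549, and in Abca4Ko from 4872 and 5408 to 2282 and 7814. The fractions also differ in RNA input, 10 ng for TRAP and 5 ng for lysate, and in precipitation, and these cannot be told apart from the cell source.

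**Figure D2:**
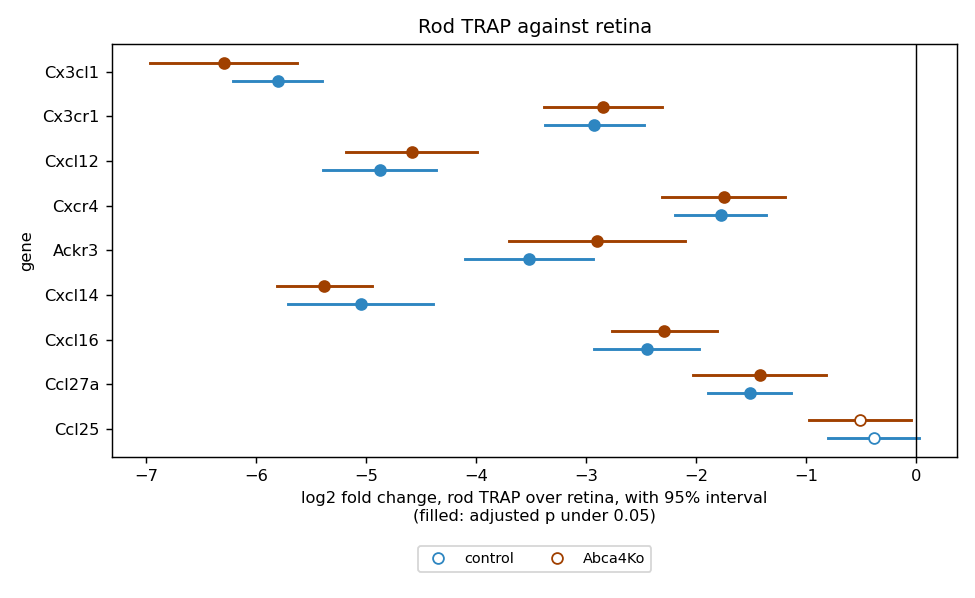
Log2 fold change of rod TRAP over retina (horizontal axis) for the 9 genes tested (vertical axis), in control and Abca4Ko, with 95% intervals, filled where the limma adjusted p is under 0.05. All points are below 0, from -6.30 for Cx3cl1 to -0.38 for Ccl25, and the Ccl25 points are open.

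The second comparison was of Abca4Ko with control in rods, which asks whether chemokine messages on rod polyribosomes change with loss of Abca4. None of the 5 genes that could be tested was called by limma, against 1.13% of all genes tested, and 2 of them, Ccl25 and Cx3cl1, had an unadjusted p under 0.05, as did 10.4% of all genes. Ccl25 was at 0.39 ± 0.18 log2 (SE, 95% interval 0.01 to 0.78, limma adjusted p = 0.474). Cx3cl1 was at -0.69 ± 0.26 (interval -1.26 to -0.12, limma adjusted p = 0.367), on 27 scaled counts in all Abca4Ko libraries together. The cone list moved in the same comparison, with a median of 0.32 beside 0.00 for all genes tested, 1 of 12 called (Gngt2, higher by 0.69) and 8 of 12 at an unadjusted p under 0.05. Its summed level was 696 to 876 CPM in Abca4Ko and 664 to 763 CPM in control rod TRAP, none of its genes was at 0, and its part in the chemokine values was not tested. For Ccl25, Cx3cl1 and Cxcl16, every Abca4Ko library lay on 1 side of every control library in scaled counts, as for 17.8% of all genes tested, but in TPM the ranges of Cx3cl1 and Cxcl16 overlapped. Cxcl16 stood at 0.24 (interval -0.16 to 0.65), Cxcl14 at -0.34 (-1.05 to 0.37) and Ccl27a at 0.04 (-0.53 to 0.61). Single control libraries decided the Cxcl14 value, which was -0.72 without control replicate 1 and -0.02 without control replicate 2. Without the library labelled Abca4Ko replicate 3, Ccl25 was at 0.39 (adjusted p = 0.517) and Cx3cl1 at -0.84 (adjusted p = 0.289). For Cx3cr1, Cxcl12, Cxcr4, Ackr3 and Ccl2 the rod TRAP counts were too low to test, and a difference was not detectable at this depth.

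**Figure D3:**
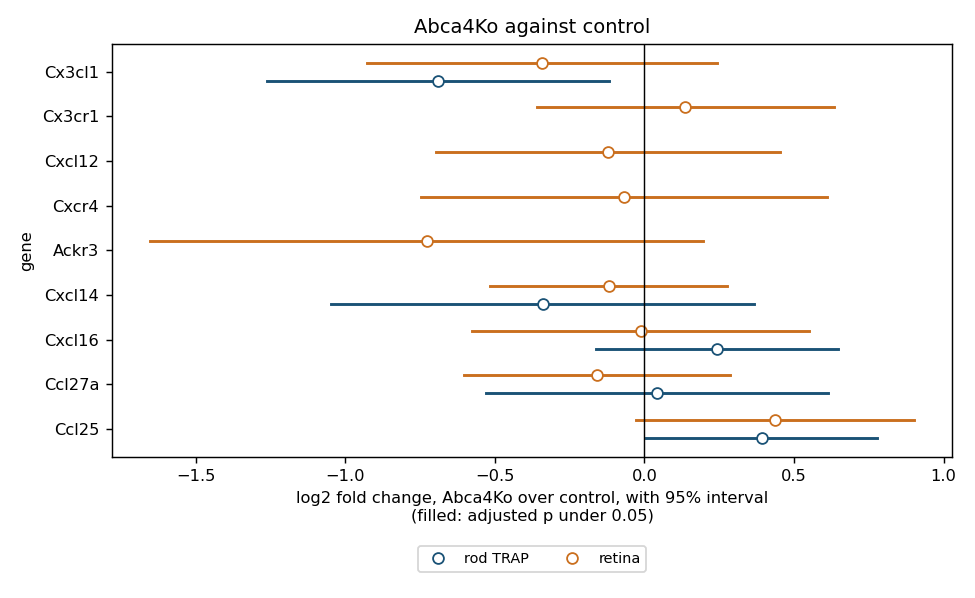
Log2 fold change of Abca4Ko over control (horizontal axis) in rod TRAP and retina for each gene tested (vertical axis), with 95% intervals. All points are open, meaning that no adjusted p is under 0.05, and the Ccl25 points lie near 0.4 in both fractions.

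The third comparison was the same contrast in whole retina. None of the 9 genes tested was called by limma, against 0.106% of all genes tested, and 0 had an unadjusted p under 0.05, beside 12.0% of all genes. Ccl25 stood at 0.44 ± 0.21 log2 (interval -0.03 to 0.90, adjusted p = 0.421), and was the 1 member whose genotypes did not overlap, against 19.7% of all genes tested. Ackr3 had the greatest estimate, -0.73 ± 0.42 (interval -1.65 to 0.20, adjusted p = 0.462), and without Abca4Ko retina replicate 1 it was -0.22. Cx3cl1 was at -0.34 ± 0.26 (interval -0.93 to 0.24) and at -0.02 without that library. Cxcl12 was at -0.12 (interval -0.70 to 0.45) and at 0.14 without it. Cx3cr1, the microglial gene, was at 0.14 (interval -0.36 to 0.63). The microglial list stood the other way, with a median of -0.44 over 14 genes tested, 0 called and 3 at an unadjusted p under 0.05. It summed to 68.4 to 82.5 CPM in Abca4Ko retina and 83.5 to 113 CPM in control retina, with no marker at 0 in either group, and its part was not tested. Cxcl14 was at -0.12 (interval -0.51 to 0.28). Ccl27a was at -0.16 (interval -0.60 to 0.29), Cxcr4 at -0.07 (-0.75 to 0.61) and Cxcl16 at -0.01 (-0.58 to 0.55). All 9 intervals include 0 and extend to both sides, so neither a change nor equal levels are shown. Without the library labelled Abca4Ko replicate 3, Ccl25 was at 0.48 and Ackr3 at -0.93, with adjusted p of 0.655 and 0.651. In whole tissue, fewer cells of a type and less RNA per cell cannot be told apart.

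In rescaled CPM, Abca4Ko retina replicate 1 was the lowest of the 6 retina libraries for 5 of the 10 genes, namely Cx3cl1, Cxcl12, Cxcr4, Ackr3 and Ccl2. It was the lowest for 6 genes in the deposited scaled counts, with Ccl27a added, and for 8 in TPM, with Cxcl14 and Cxcl16 added. Against the control mean it was at -0.97 log2 for Cx3cl1, -0.64 for Cxcl12, -0.65 for Cxcr4 and -1.74 for Ackr3. The marker lists moved in that library as well, with bipolar markers at -0.66, amacrine at -0.48, vascular at -0.77 and RPE (retinal pigment epithelium) at -2.26, and rod markers at 0.36. The part of sample composition in these values was not tested. Ccl25 and Cx3cr1 were above the control mean there, at 0.54 and 0.24.

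**Figure D4:**
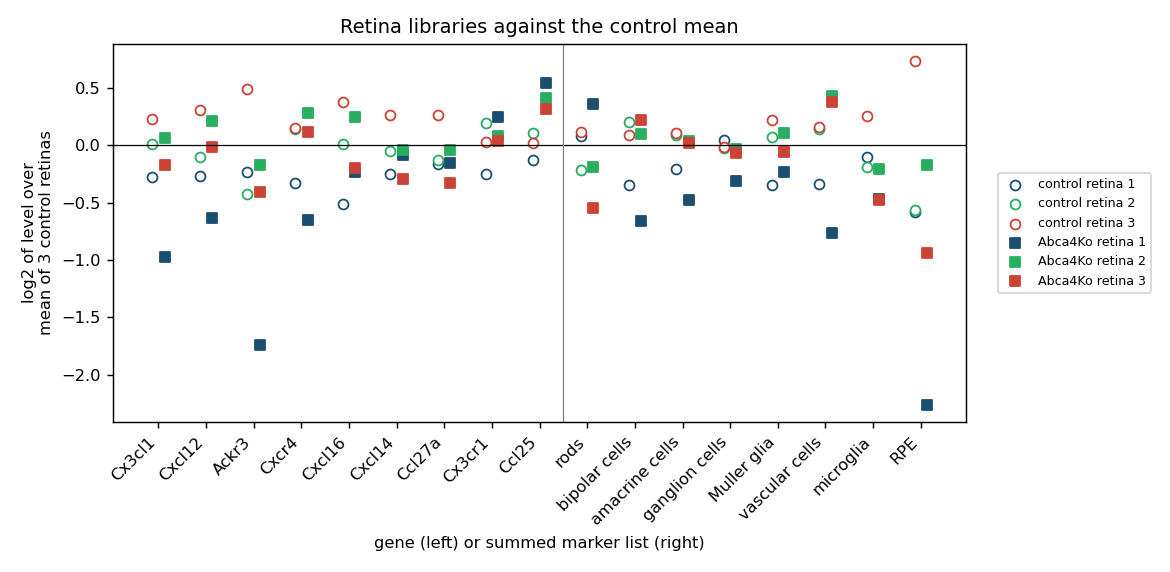
Log2 of the level in each retina library over the mean of the 3 control retinas (vertical axis), for genes on the left and summed marker lists on the right, with circles for control and squares for Abca4Ko and a colour per replicate number. The dark blue squares, Abca4Ko replicate 1, are lowest for Cx3cl1, Cxcl12, Ackr3 and Cxcr4 and for the bipolar, amacrine, vascular and RPE lists.

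The difference between the genotype effects in the 2 fractions was tested as an interaction over all 12 libraries. None of the 9 members tested was called by limma, against 0.00579% of 17273 genes, and 0 had an unadjusted p under 0.05, beside 11.3% of all genes. Cx3cr1, Cxcl12, Cxcr4 and Ackr3 entered this fit only through retina, so for them the result cannot show whether the fractions differ. Cxcr4 was at 0 in every rod TRAP library, so its estimate restates the retina difference. The estimate for Ccl25 was -0.05 ± 0.25 (interval -0.57 to 0.48), and for Cx3cl1 -0.41 ± 0.38 (-1.22 to 0.40).

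Most of the wider family was at or below detection, above all in rod TRAP. Of 64 ligands and receptors, 19 were above the limit in all 6 retina libraries and 9 in all 6 rod TRAP libraries, while 28 and 50 were above it in none. Outside the 10 members, 54 genes remained, of which 5 could be tested in a fraction comparison. In control, 3 of them were called lower in rod TRAP and 1 higher, beside 38.8% and 36.6% of all genes. Ackr1, a decoy receptor, was lower, at -3.20 ± 0.16 log2 (limma adjusted p = 2.7e-09), Ccl9 at -1.50 ± 0.20 and Ccr10, the Ccl27a receptor, at -0.83 ± 0.25. Ccr10 had 8, 17 and 6 scaled counts in control rod TRAP against 31, 35 and 46 in control retina. It thus passed the filter only through retina, and its call carries no weight. Ccr9, the Ccl25 receptor, was called higher in control, at 0.76 ± 0.28, on 19, 29 and 18 scaled counts in rod TRAP against 21, 27 and 6 in retina. The TPM table lists Ccr9 at 0.0 in all 12 libraries, the call held under 9 of 14 alternatives, and in Abca4Ko Ccr9 stood at -0.09 ± 0.31. None of the 17 ligands and receptors tested in retina, nor of the 9 tested in rod TRAP, was called between genotypes, with an unadjusted p under 0.05 for 0 and 2 of them.

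Among 25 genes of ligand shedding and receptor signal transfer, 15 were called lower and 4 higher in control rod TRAP of 19 tested, beside 38.8% and 36.6% of all genes. In Abca4Ko 13 were called lower and 3 higher of 17 tested, beside 33.7% and 30.4%. Some of these also passed the filter only through retina, so the counts carry no weight for the list. Arrb1, a beta-arrestin that ends receptor signalling, was lower, at -5.17 and -5.04, Elmo1, an adaptor for Rac activation, at -5.11 and -5.22, and Gnai2, an inhibitory G protein subunit, at -4.93 in control. Grk3, a receptor kinase, was lower, at -4.46 in Abca4Ko, on 6, 7 and 8 scaled counts in rod TRAP. Grk3 thus passed the filter only through retina, and its value ran from -5.18 to -2.71 over the alternatives. The higher genes included Adam10 and Adam17, the proteases that cut Cx3cl1 and Cxcl16 from the membrane, and the G protein subunit Gnai3. Adam10 had 1120, 1240 and 1226 scaled counts in control rod TRAP against 409, 404 and 256 in control retina, a log2 difference of 2.45 ± 0.17. Gnai3 was higher by 1.98 and Adam17 by 1.61, and in Abca4Ko the 3 genes were higher by 1.68, 1.02 and 0.90 in the order Adam10, Gnai3, Adam17. In Abca4Ko the Adam17 call held under 13 of 15 alternatives and the Gnai3 call under 14. None of the 25 was called between genotypes by limma, with an unadjusted p under 0.05 for 1 of 12 in rod TRAP and 5 of 23 in retina, beside 10.4% and 12.0% of all genes. Grk5, a receptor kinase, passed in rod TRAP under 1 of 15 alternatives, without Abca4Ko replicate 2 (adjusted p = 0.0366).

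The genes whose level most resembled Cx3cl1 over the 12 libraries were Slc6a17 (Pearson r = 0.999), Dlgap3 (0.999) and Zdhhc22 (0.999) among 12747 compared, and those most like Cxcl12 were Slc6a11 (0.999), Spon1 (0.999) and Syn1 (0.998). The libraries form 2 fractions, and 1232 and 1244 genes had r over 0.95, so these values describe the gap between the fractions.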

How the data were processed

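Retina and rod TRAP libraries of Abca4Ko and control mice (3 per group) were made by the authors with a low-input cDNA kit. The submitters' processing notes name CASAVA 1.8.2, HISAT2, DESeq2, edgeR and GRCm39, with no role or order. The authors deposited 2 tables. The first holds scaled counts, a score for which the authors multiplied each library's read counts by its own factor and rounded the product. Totals differ by only 0.00697% within rod TRAP and 0.00876% within retina. The second deposited table holds TPM to 1 decimal. Strand use and the handling of reads with several matches are not given in the sources used here. Gene overlaps were read from GENCODE M21 (GRCm38), and no coordinates of it were joined to the values.

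Libraries were then brought to TMM-normalised totals (trims 0.3 and 0.05) and tested as log2(CPM + 0.5) with limma 3.58.1 (trend, robust) in R 4.3.3, two-sided, with Benjamini-Hochberg adjusted p under 0.05 over all genes tested. A gene was tested with at least 10 scaled counts in at least 3 libraries of the fit. Fold changes on this scale understate those of low genes. The fit was tested on simulated data. Shares of retina carry exact binomial counting intervals at 95%, which cover counting error only. The limit in TPM is 3 reads at the largest recovered scale factor of the fraction and at the scale of the gene's retina values. Groups came from the labels. Deviations from the group means correlated between same-numbered rod TRAP and retina libraries (r of 0.144, 0.145 and 0.158 in control and 0.557, 0.200 and 0.519 in Abca4Ko over 11738 genes). Each rod TRAP library matched the retina library of its own number best, except Abca4Ko replicate 2, which matched retina replicate 3. Retina libraries numbered 1 of the 2 genotypes, which cannot be a pair, also reached r = 0.321. It is thus not settled that the numbers pair the fractions, and the replicate block is an alternative only. Alternatives were scaling, filter, pseudocount, the TPM table, a replicate block, a joint fit, limma without the robust option and each library left out.

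The genes and lists were chosen with earlier results of these data known. Named genes were the 10 members, any gene of the 3 chemokine lists called between genotypes (there was none), the 3 greatest called rises and falls of the lists outside the members in each fraction comparison, and the 3 genes most like Cx3cl1 and Cxcl12, with Abca4 as the label check. Ackr1, Ccl9, Ccr9, Ccr10, Grk5 and Gngt2 were added after their values were seen.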

Additional observations from a re-analysis of the deposited data

How the results depend on the processing

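Members called lay between 8 and 9 under all 15 alternatives in each fraction comparison, and at 0 under all alternatives of the 2 genotype comparisons and of the interaction. The fraction counts carry no weight, since Cx3cr1, Cxcl12, Cxcr4 and Ackr3 passed the filter only through retina. Of all genes tested in the main fits, 38.8% were called lower in control and 33.7% in Abca4Ko. Ccl25 accounted for the ninth call. It passed in control under the authors' totals (-0.94), median of ratios (-0.48), log2(TPM + 1) (-0.60) and the joint fit (-0.46). In Abca4Ko it passed under the authors' totals (-0.99), median of ratios (-0.59), a pseudocount of 2 (-0.39), the replicate block (-0.51), the joint fit (-0.51) and without Abca4Ko retina replicate 1 (-0.53). The replicate block changed no other call of a member. Of the single-gene alternatives, 633 kept direction and side, 10 were the Ccl25 calls and 25 changed sign, all of them uncalled. With log2(TPM + 1) the Ccl27a genotype difference in rod TRAP was -0.0080, and the interaction was 0.10 for Cx3cl1, -0.0265 for Cx3cr1 and 0.12 for Ccl25. The Cx3cr1 interaction was -0.0175 with a pseudocount of 2 and -0.10 without both Abca4Ko replicate 3 libraries. With 1 library left out, the genotype difference in retina ranged from -0.30 to 0.14 for Cxcl12, from -0.23 to 0.0326 for Cxcl14, from -0.25 to 0.21 for Cxcl16 and from -0.26 to 0.24 for Cxcr4, and that of Ccl27a in rod TRAP from -0.30 to 0.24. The interaction then ranged from -0.11 to 0.0194 for Ccl25, from -0.15 to 0.37 for Ccl27a, from -0.0576 to 0.26 for Cx3cr1, from -0.66 to 0.0869 for Cxcl14 and from -0.24 to 0.25 for Cxcr4. The cause was not tested. Over all genes, 148 were called between genotypes in rod TRAP, 94 in the joint fit, 47 with log2(TPM + 1) and 30 to 621 with 1 library left out, the highest without Abca4Ko rod TRAP replicate 1 and 30, 35 or 36 without control rod TRAP replicate 2, 3 or 1. In retina 18 were called, 12 on the authors' totals, 33 without a filter, 38 with log2(TPM + 1), 46 with the block, 62 in the joint fit and 1 to 37 with 1 library left out, at 1 without control retina replicate 3, 10 without control retina replicate 1 and 37 without Abca4Ko retina replicate 3. The interaction gave 1 call, 3 with log2(TPM + 1) and 2 without Abca4Ko retina replicate 1. Depth limits Cx3cr1, Cxcl12, Cxcr4, Ackr3 and Ccl2 in rod TRAP, where counts were at or near 3 reads.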
